A study of Mus musculus with 24 samples.

Results

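The step from 6 to 9 months of age was examined in whole ovaries of untreated mice. It rests on 6 of the 24 libraries of the series, 3 from mice of the natural aging series at 6 months and 3 from such mice at 9 months. All were female C57BL/6J mice, an inbred strain, with no transgene or deletion named. The series held 8 groups of 3 mice, and the 3 ABT263-treated mice at each of the same ages were used here only for comparison. ABT263 (navitoclax) inhibits proteins of the BCL-2 family and is given as a senolytic. The methods describe its dosing by mouth in monthly cycles from 3 to 6 months of age, so that the treated mice at 9 months had been without it since.

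The sample labels describe the untreated mice only as natural aging, whereas the same libraries also served as the study's controls for ABT263. The methods describe controls that received vehicle and that, until 9 months, were housed with males for a fertility assay. The stage of the estrous cycle is not given in the sources used here. Age, mating history and cycle stage therefore cannot be told apart in the 6 libraries.

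Total counts were 20231834, 19991606 and 19254606 in the 6-month mice and 18377716, 19829519 and 21049389 in the 9-month mice. A gene at 3 counts or fewer in a library was not read as expressed there. At this depth, 3 counts correspond to between 0.144 and 0.166 CPM (reads of a gene relative to its library's total, scaled by TMM over the series). Mitochondrial genes took 2.54% to 2.70% of counts at 6 months and 2.54%, 3.27% and 2.96% in 9-month mice 1, 2 and 3. The libraries had the RNA of an ovary. The granulosa gene Inha had a mean of 2166 ± 447 CPM (SD, n = 3) at 6 months and the steroidogenic gene Hsd3b1 a mean of 4926 ± 292 CPM (SD, n = 3). Of 12 uterine and placental genes, 8 stayed at 3 counts or fewer in each of the 6 libraries.

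9-month mouse 1 was the library least like the rest of its group. Pearson's r of log2(CPM + 1) across 15562 genes, which are not independent replicates, was 0.9592 and 0.9666 with 9-month mice 2 and 3, against 0.9841 between those mice, and its value with 6-month mouse 1 was 0.9800. 9-month mice 2 and 3 also shared a high level of cholesterol synthesis genes that 9-month mouse 1 and the 6-month mice did not have. 6-month mouse 3 carried RNA of the oviduct, with 164 CPM of the oviductal glycoprotein Ovgp1 against 3.01 and 3.82 CPM in mice 1 and 2 and 7.94 CPM of the ciliated cell factor Foxj1 against 0.197 and 0.644 CPM. Values without these libraries stand beside many of the lists whose counts or medians they moved. With 9-month mice 2 and 3 left out, the later age is mouse 1 alone and has no spread of its own, so medians and log2 fold changes of that fit are given as values, with no test. Each library is 1 mouse, so p-values measure the spread between these mice only, and the labels give no batch.

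As background, the ovary is built around follicles. Each follicle holds an oocyte within granulosa cells, which respond to follicle-stimulating hormone, and growing follicles gain a theca layer that makes androgens. After ovulation the follicle becomes a corpus luteum, a vascular gland that turns cholesterol into progesterone. The follicle reserve only shrinks with age, and in mice the months examined here precede the end of fertility.

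Of 17322 genes tested, none passed an adjusted p of 0.05 in edgeR's quasi-likelihood test (0 genes, 0%), and the smallest adjusted p was 0.083. At an unadjusted p under 0.05, 1035 genes were higher at 9 months, or 5.98% of those tested, and 731 were lower, or 4.22%. DESeq2's Wald test called 359 genes at an adjusted p of 0.05, 251 higher and 108 lower. Without 9-month mouse 1, edgeR called 583 genes. That fit also had 1785 of 17850 genes higher and 1236 lower at an unadjusted p under 0.05. At that threshold, 713, 883 and 677 genes were higher without 6-month mouse 1, 2 or 3, and 508, 554 and 511 were lower. Without 9-month mouse 2 or 3, 757 and 896 genes were higher and 559 and 773 lower. List counts below are to be read beside the numbers of their own fit, and those with all 6 mice beside 5.98% and 4.22%. All 3 9-month mice lay above all 3 6-month mice for 1351 genes, or 7.8%, and below them for 1372, or 7.92%. Separation together with a fold change of 2 or more (a log2 fold change of at least 1) was seen for 215 higher genes, or 1.24%, and 170 lower genes, or 0.981%. Among the 215 higher genes, the 9-month mouse closest to the 6-month mice was mouse 1 for 131, mouse 2 for 33 and mouse 3 for 51. Gene by gene, the values below are therefore differences between these mice that did not pass the adjusted test, and the words higher and lower describe measured means.

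The 32 gene lists differed in how often their members departed from these background shares. Cholesterol, luteal and interferon-response genes stood at the higher end, and oocyte genes at the lower end, as the plot of member shares shows. The lower share of the oviduct list rests on 6-month mouse 3.

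**Figure D1:**
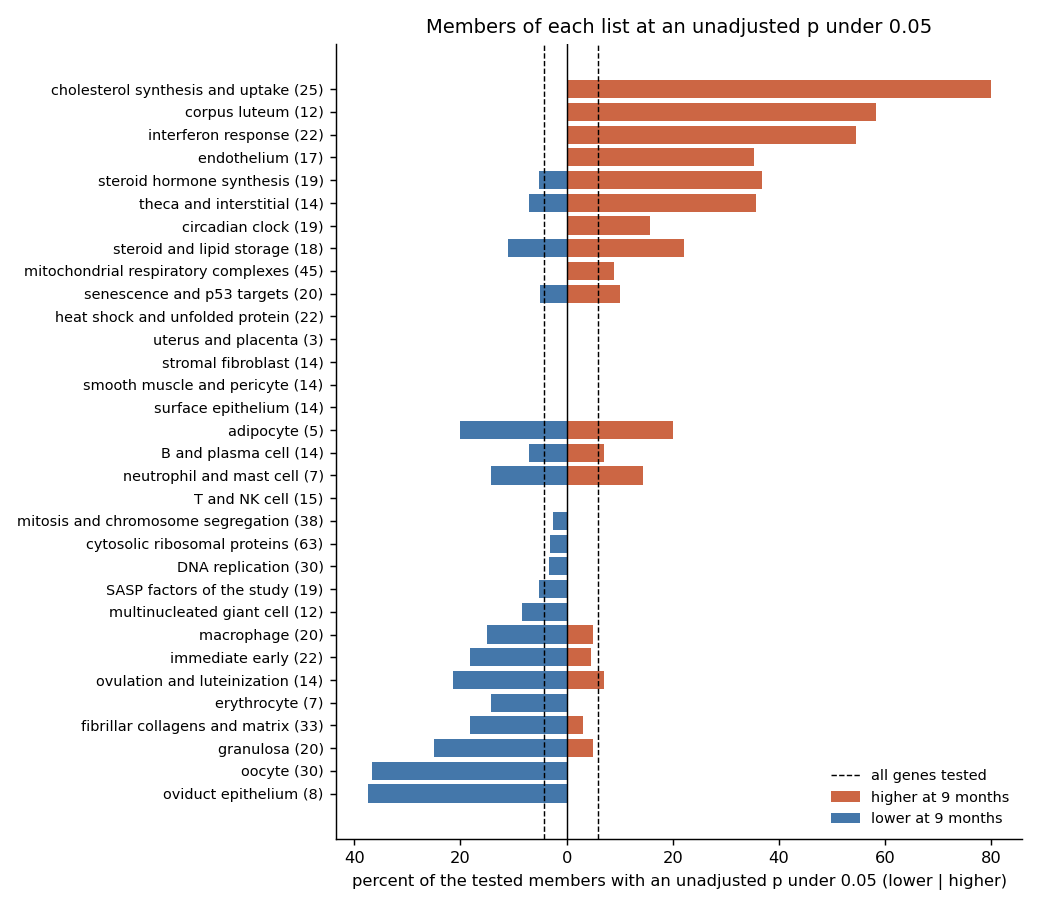
Percent of the tested members of each list (number tested in brackets) with an unadjusted p under 0.05 in edgeR's quasi-likelihood test, lower at 9 months to the left and higher to the right. Dashed lines mark the same shares over all 17322 genes, 4.22% and 5.98%; cholesterol synthesis reaches 20 of 25 members and oocytes 11 of 30.

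Oocyte genes were lower at 9 months. Of 30 oocyte genes, 28 had a lower mean, 11 of them at an unadjusted p under 0.05, and none was higher at that level. Their median log2 fold change was -0.62, beside 0.002 over all genes tested. The summed level of the list was 776, 741 and 719 CPM in the 6-month mice and 552, 324 and 581 CPM in the 9-month mice. The groups did not overlap, and 9-month mouse 2 was the lowest. In bulk ovary RNA, fewer oocytes and less RNA per oocyte cannot be told apart, and the same holds for each cell type below.

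Among the individual genes, Mos, Bmp15, Gdf9, Zp1, Zp2 and Zp3 had lower means at 9 months. Mos, a kinase of meiotic arrest (GRCm38 chr4:3870657-3872105), measured 5.57, 5.50 and 5.21 CPM at 6 months and 2.81, 2.43 and 3.74 CPM at 9 months. Its log2 fold change was -0.86 ± 0.24 (SE), with an adjusted p of 0.326 in edgeR. All 3 9-month mice were below the 6-month mice, which differed little among themselves. Bmp15, an oocyte-secreted growth factor on the X chromosome, had 26.5, 21.6 and 22.7 CPM at 6 months and 15, 6.96 and 16.5 CPM at 9 months (log2 fold change -0.88 ± 0.30). Gdf9, its partner on chromosome 11, had 55.6, 57.0 and 53.5 CPM and then 34.6, 20.4 and 47.8 CPM (-0.69 ± 0.27). For both growth factors the ages were separate and 9-month mouse 2 was lowest.

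The zona pellucida genes encode the coat of growing oocytes. Zp1 measured 17.4, 17 and 19.1 CPM at 6 months and 10.4, 5.03 and 13.3 CPM at 9 months (-0.90 ± 0.32). Zp2 and Zp3 had log2 fold changes of -0.54 ± 0.28 and -0.58 ± 0.31. Only Zp1 met the unadjusted threshold, although the levels of each were lowest in 9-month mouse 2. Lhx8, a transcription factor of early oocytes, had 2.81, 3.07 and 2.17 CPM at 6 months and 1.35, 0.552 and 1.68 CPM at 9 months (-1.16 ± 0.42). Figla, another early factor, had 0.789, 0.694 and 0.759 CPM at 6 months and 0.27, 0.0552 and 0.528 CPM at 9 months. The 9-month values of Figla are near the limit of detection, and its 6-month values are above it in each mouse.

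2 genes on the list are less specific to oocytes. Kit, the receptor for stem cell factor on oocytes and theca and also a mast cell marker, had 59.6, 76.2 and 56.2 CPM at 6 months and 48.5, 23.8 and 28.9 CPM at 9 months (-0.93 ± 0.26). Uchl1, a deubiquitinating enzyme and the most abundant gene of the list per kilobase, had 123, 142 and 123 CPM and then 109, 39.3 and 46.6 CPM (-0.99 ± 0.36). In both, 9-month mouse 1 was close to the 6-month mice, unlike in Mos. The germ cell helicase Ddx4 overlapped between the ages, with 3.01, 2.23 and 2.53 CPM and then 3.46, 0.663 and 2.50 CPM.

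The number of oocyte genes past the threshold moved with single mice, while the median stayed below 0 in each fit named here. With only 9-month mouse 1 at the later age, the median log2 fold change over the 30 genes was -0.51. Without 6-month mouse 1, 2 or 3 the number was 2, 4 and 6 (median -0.69 without mouse 3). Without 9-month mouse 2 or 3 the number was 6 and 21, with medians of -0.36 and -0.87. Over the whole natural aging series, the 9-month sums lay between those at 3 months, 907 to 1261 CPM, and those at 18 months, 194 to 242 CPM. The 12-month mice, at 352 to 424 CPM, lay above 9-month mouse 2 and below the other 9-month mice.

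**Figure D2:**
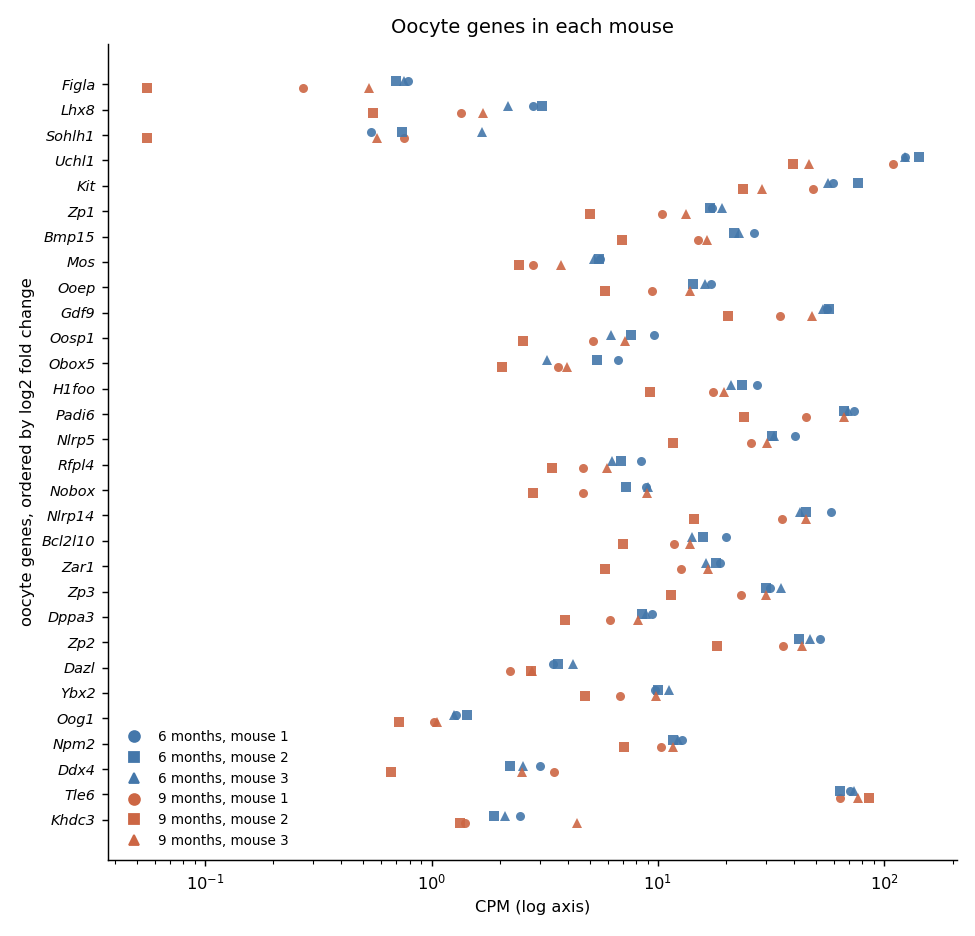
Level of each of the 30 oocyte genes in CPM (log axis) in each 6-month (blue) and 9-month (orange) mouse, ordered by log2 fold change. 28 genes have a lower mean at 9 months, and 9-month mouse 2 (orange square) is often the lowest.

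Granulosa genes included the receptor and hormone genes of growing follicles. Of 20 genes, 5 were lower and 1 was higher at an unadjusted p under 0.05, with a median log2 fold change of -0.09. The balance depended on the 9-month mice kept, with 5 lower and 5 higher without mouse 1 (median 0.01) and a median of -0.44 without mice 2 and 3. Fshr, the receptor of follicle-stimulating hormone, measured 33.1, 44.9 and 31.3 CPM at 6 months and 14.4, 20.9 and 22.2 CPM at 9 months. It had a log2 fold change of -0.93 ± 0.21 and an adjusted p of 0.237, with every 9-month mouse below every 6-month mouse. Amh, the anti-Müllerian hormone made by small growing follicles, had 168, 201 and 247 CPM and then 150, 61.9 and 129 CPM (-0.86 ± 0.31). The ages were separate, and here 9-month mouse 1 was close to the lowest 6-month mouse.

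Nr0b1, a nuclear receptor that represses steroidogenic genes, had 12.2, 16.9 and 11.3 CPM at 6 months and 6.38, 7.35 and 10.2 CPM at 9 months (-0.76 ± 0.24). Foxl2, a transcription factor of granulosa identity, had a mean of 239 ± 33.5 CPM at 6 months and 263 ± 19.9 CPM at 9 months (SD, n = 3 each). Inha, the inhibin alpha subunit, averaged 2166 ± 447 and 2124 ± 785 CPM (SD, n = 3 each). Foxl2 and Inha overlapped between the ages, whereas Nr0b1 did not.

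Steroidogenic and luteal genes were higher at 9 months, in part in all 3 mice. Of 12 luteal genes 7 were higher at an unadjusted p under 0.05 and none was lower, with a median log2 fold change of 0.71. Of 19 steroid hormone synthesis genes 7 were higher and 1 was lower (median 0.42), and of 14 theca and interstitial genes 5 were higher and 1 was lower (median 0.30). Without 9-month mouse 1, 11 steroid hormone genes were higher and 3 lower (median 0.53), and 6 theca and interstitial genes were higher and 3 lower (median 0.19). The 3 lists share members such as Star and Cyp11a1. They also share members with the cholesterol list below, such as Hsd17b7 of the luteal list and Scarb1 of the theca and interstitial list.

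Of the 19 steroid hormone synthesis genes, 4 were higher in every 9-month mouse and 2 were lower in every one. Over all genes these shares were 7.8% and 7.92%. Star, which moves cholesterol into mitochondria (chr8:25806555-25815982), had 1214, 665 and 522 CPM at 6 months and 1944, 2785 and 2545 CPM at 9 months. The log2 fold change was 1.60 ± 0.31, and the adjusted p was 0.183 in edgeR. Each 9-month mouse exceeded the highest 6-month mouse, and with 9-month mice 2 and 3 left out the log2 fold change was 1.29. Fdx1, the ferredoxin that passes electrons to the mitochondrial cytochromes P450, had 957, 706 and 658 CPM and then 1193, 1070 and 1299 CPM (0.62 ± 0.17). Hsd3b1, which makes progesterone, had log2 fold change 0.61 ± 0.17, with all 9-month mice higher. Cyp11a1, which opens the pathway by cutting the cholesterol side chain, overlapped between the ages (0.48 ± 0.23).

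Among the 12 luteal genes, 10 had a higher mean, and 3 were higher in every 9-month mouse, beside 7.8% of all genes. Rgcc, a regulator of cell cycle and vessel growth, had 69.5, 60.2 and 47.4 CPM at 6 months and 127, 111 and 162 CPM at 9 months (1.17 ± 0.18, adjusted p = 0.119 in edgeR). Prlr, the prolactin receptor, had 416, 444 and 303 CPM and then 542, 865 and 614 CPM (0.79 ± 0.21). Both genes were separate between the ages in all mice. Hsd17b7, an enzyme of both estradiol and cholesterol synthesis, had 233, 439 and 334 CPM and then 88.0, 4702 and 3091 CPM (2.96 ± 1.07). Its level was below that of every 6-month mouse in 9-month mouse 1 and far above in the other two.

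The genes of luteal regression and of androgen synthesis took other courses. Akr1c18, which inactivates progesterone in regressing corpora lutea, had 606, 1284 and 115 CPM at 6 months and 1165, 82.2 and 19.4 CPM at 9 months. Mouse-to-mouse spread at each age was larger than any difference between the ages. Cyp17a1, the enzyme of androgen synthesis in theca cells, had 390, 502 and 242 CPM and then 3.24, 129 and 117 CPM (-2.19 ± 0.96, adjusted p = 0.499 in edgeR). All 9-month mice were lower, with 9-month mouse 1 by far the lowest.

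Without 9-month mice 2 and 3, the median log2 fold change was 0.25 over the luteal list, 0.01 over the steroid hormone list and -0.04 over the theca and interstitial list. Without 6-month mouse 3, 4 theca and interstitial genes were higher and 3 lower. The 7 luteal genes were 4 without 6-month mouse 1, 3 without 6-month mouse 3 and 4 without 9-month mouse 2. The part of luteal content and cycle stage in these differences was not tested.

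Genes of cholesterol synthesis and uptake showed the largest difference, and it was carried by 9-month mice 2 and 3. These genes are jointly driven by the transcription factor SREBP2 when cells are short of sterol. Of 25 genes 20 were higher at an unadjusted p under 0.05 and none was lower, with a median log2 fold change of 1.41. Their summed level was 2491, 2856 and 2570 CPM at 6 months and 2287, 12723 and 10481 CPM at 9 months. 9-month mouse 1 lay below all 6-month mice, so the ages overlapped. With mice 2 and 3 left out the median log2 fold change was -0.20, as a value of mouse 1 alone. With mouse 1 left out, 22 of the 25 passed an adjusted p of 0.05 in edgeR. The 20 genes at the unadjusted threshold were 9 and 10 without 6-month mouse 1 or 3, and 9 and 8 without 9-month mouse 2 or 3.

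Hmgcs1, which forms HMG-CoA (chr13:119690379-119708260), had 359, 294 and 351 CPM at 6 months and 474, 1150 and 1129 CPM at 9 months (1.45 ± 0.31, adjusted p = 0.232 in edgeR). Every 9-month mouse was above the 6-month mice, mouse 1 by the least. Lss, which closes the sterol rings, had 61.1, 48.7 and 61.7 CPM and then 52.2, 329 and 325 CPM (2.03 ± 0.58). Dhcr7, of the final step, had 125, 95.1 and 95.5 CPM and then 213, 695 and 770 CPM (2.41 ± 0.43, adjusted p = 0.166 in edgeR). Dhcr7 and Hmgcs1 were the 2 of 25 members whose ages did not overlap, a share near the 7.8% of all genes with every 9-month mouse above, and with mice 2 and 3 left out their log2 fold changes were 1.03 and 0.51.

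A gene of uptake had the same split. Scarb1, the receptor for high-density lipoprotein, had 1226, 1059 and 1081 CPM and then 1055, 5103 and 3729 CPM (1.55 ± 0.48). 9-month mouse 1 was just below the 6-month mice and the other 9-month mice were far above them. Srebf2, which encodes SREBP2, differed less, with 193, 288 and 239 CPM and then 221, 360 and 278 CPM (0.25 ± 0.21).

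The sterol element TCACNCCAC, searched on both strands of 300 bases around the annotated start (250 before and 50 after, RefSeq on GRCm38.p6), was found for 1 of the 17 cholesterol genes with a promoter in the table and for 1.44% of 27025 genes. The single match, in Hmgcs1, is shown because that gene was higher in every 9-month mouse; capitals mark the element, which begins 137 bases before the start (chr13:119690184-119690252, plus strand).
Hmgcs1: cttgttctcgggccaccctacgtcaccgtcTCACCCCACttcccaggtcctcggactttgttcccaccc

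High cholesterol sums were not restricted to these mice. The sums were 13015, 2238 and 2341 CPM in the 12-month mice and 4952, 1657 and 3199 CPM in the 3-month mice. In ABT263-treated mice they were 2151, 3931 and 4687 CPM at 6 months and 2002, 1718 and 4642 CPM at 9 months. In the 12-month and the treated 9-month group a single mouse was far above the others. Red blood cell genes moved with the cholesterol genes in the untreated mice, with sums of 110, 163 and 114 CPM at 6 months and 66.6, 308 and 280 CPM at 9 months over the 9 genes, of which Hbb-bs was the most abundant per kilobase. Their part in the result was not tested.

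Genes of lipid storage went both ways. Plin1, which coats lipid droplets, had 41.1, 46.7 and 31.9 CPM at 6 months and 19.2, 14 and 24.8 CPM at 9 months (-1.05 ± 0.23, adjusted p = 0.232 in edgeR). Fabp3, a fatty acid carrier, had 55.0, 72.7 and 37.5 CPM and then 29.9, 18.8 and 27.1 CPM (-1.12 ± 0.26). Both were lower in each 9-month mouse. Lipe, the hormone-sensitive lipase, and Acsl4, which activates arachidonic acid, were higher in each, at log2 fold changes of 0.85 ± 0.22 and 1.33 ± 0.26. Of 18 storage genes 4 were higher and 2 lower at an unadjusted p under 0.05, and without 9-month mouse 1 there were 7 and 4. Plin1 is also on the adipocyte list, as its most abundant member per kilobase. That list's sums overlapped, at 60.1, 59.8 and 73.7 CPM at 6 months and 43, 37.1 and 61 CPM at 9 months. The part of attached fat was not tested.

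**Figure D3:**
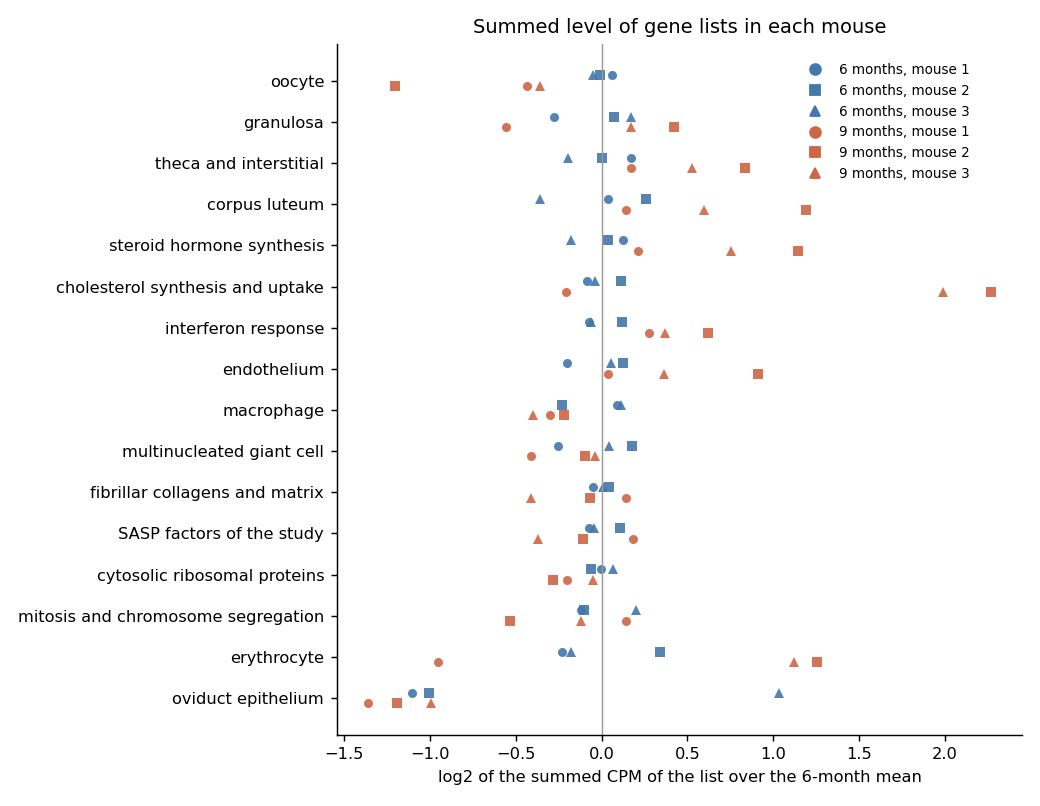
Summed CPM of 16 gene lists in each mouse, as the log2 ratio to the 6-month mean (blue 6 months, orange 9 months, symbols for mice 1, 2 and 3). 9-month mice 2 and 3 stand at about 12723 and 10481 CPM for cholesterol genes while mouse 1 is at 2287 CPM; the oviduct mean is raised by 6-month mouse 3.

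Interferon-response genes were moderately higher in all 3 9-month mice. Interferons act through a complex that holds STAT2 and IRF9, which binds a shared promoter element and switches on antiviral genes. Of 22 such genes tested, 21 had a higher mean, 12 were higher at an unadjusted p under 0.05 and none was lower, with a median log2 fold change of 0.49. The 12 are 54.5% of the list, against 5.98% of all genes, and in 12 genes every 9-month mouse was above every 6-month mouse, against 7.8% of all genes. Summed levels were 595, 682 and 602 CPM at 6 months and 758, 963 and 809 CPM at 9 months. Such levels were not restricted to 9 months, with 777, 606 and 644 CPM at 3 months and 838, 831 and 1299 CPM at 12 months. ABT263-treated mice had 565, 753 and 825 CPM at 6 months and 682, 633 and 749 CPM at 9 months. Without 9-month mice 2 and 3 the median was 0.56 over the 23 genes tested in that fit. The 12 genes were 8 without 9-month mouse 1, 5 without 6-month mouse 1 and 7 without 6-month mouse 3.

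Rsad2, the antiviral enzyme viperin (chr12:26442746-26456452), had 6.21, 7.54 and 6.78 CPM at 6 months and 15, 12.4 and 22.7 CPM at 9 months (1.28 ± 0.25, adjusted p = 0.183 in edgeR). Ifi44 had 4.98, 5.16 and 4.60 CPM and then 9.46, 7.62 and 10.5 CPM (0.90 ± 0.20). Both were separate between the ages, in mouse 1 as in the others. Ifit3, an antiviral protein of the IFIT family, had 7.64, 9.37 and 9.56 CPM and then 19.3, 12.0 and 11.5 CPM (0.68 ± 0.24). Ifit1 had log2 fold change 0.62 ± 0.23, and its lowest 9-month value, 9.28 CPM, was just above its highest 6-month value of 9.27 CPM.

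Among regulators of the response, Stat2 had 58.3, 59.9 and 53.1 CPM at 6 months and 71.0, 91.5 and 94.8 CPM at 9 months (0.58 ± 0.13, adjusted p = 0.24 in edgeR). Irf7, the regulator that amplifies interferon production, had 12.4, 18.2 and 16.1 CPM and then 20.9, 26.8 and 25.3 CPM (0.64 ± 0.18). All 9-month mice exceeded all 6-month mice in both. Isg15, a ubiquitin-like modifier, was at 5.82, 6.40 and 4.65 CPM and then 6.11, 6.19 and 6.24 CPM, and Bst2, the most abundant gene of the list per kilobase, was at 196, 200 and 210 CPM and then 197, 324 and 244 CPM. These 2 overlapped between the ages.

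The interferon element GAAANNGAA was searched on both strands of the same promoter windows, a choice made after the data were seen. It was found for 12 of 17 interferon-response genes with a promoter in the table (70.6%) and for 9.76% of all 27025 genes. Neighbouring copies can share letters, as in Isg15, and a match is a description of sequence, not of binding. Rsad2, Stat2 and Ifit3, whose ages were separate, and Isg15, whose ages overlapped, are shown so that the element can be compared; capitals mark it, and TTCNNTTTC is the same element read from the other strand. The windows are chr12:26456533-26456601 (minus strand), chr10:128270248-128270315 (plus), chr19:34583344-34583465 (plus) and chr4:156200846-156200926 (minus).
Rsad2: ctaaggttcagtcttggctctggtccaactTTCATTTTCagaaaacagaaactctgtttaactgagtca
Stat2: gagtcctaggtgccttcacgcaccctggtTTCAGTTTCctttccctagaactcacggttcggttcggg
Ifit3: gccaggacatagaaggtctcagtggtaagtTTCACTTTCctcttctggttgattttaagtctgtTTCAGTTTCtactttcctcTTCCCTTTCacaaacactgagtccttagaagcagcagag
Isg15: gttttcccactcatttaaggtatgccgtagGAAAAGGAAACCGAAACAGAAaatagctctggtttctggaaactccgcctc

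The element occurs once in Rsad2 and Stat2 and 3 times in Ifit3 and Isg15. The number of matches did not order these genes by their difference, since Isg15 has as many as Ifit3.

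**Figure D4:**
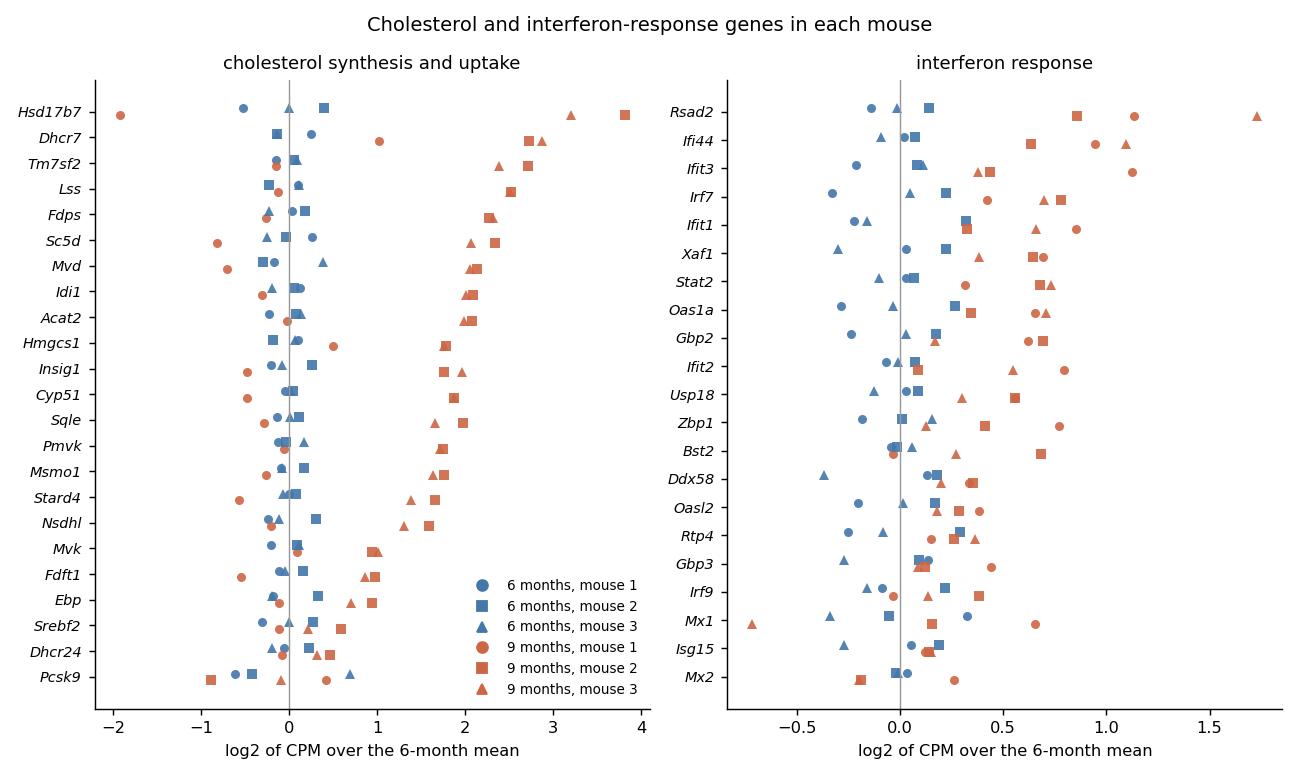
Members of the lists of cholesterol synthesis and uptake (left) and of the interferon response (right), each as the log2 ratio of CPM to the 6-month mean in every 6-month (blue) and 9-month (orange) mouse. On the left, 9-month mice 2 and 3 stand far to the right of mouse 1; on the right, all 3 9-month mice lie above 0 for most of the genes drawn.

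Macrophage genes were slightly lower in the same mice. Of 20 genes, 18 had a lower mean, 3 of them at an unadjusted p under 0.05, and 1 was higher at that level, with a median log2 fold change of -0.27. The 3 and 1 genes are 15% and 5% of the list, beside 4.22% and 5.98% of all genes. Summed levels overlapped, at 1000, 799 and 1015 CPM at 6 months and 762, 806 and 712 CPM at 9 months. Csf1r, the receptor that keeps macrophages alive, had 73.0, 58.0 and 65.3 CPM at 6 months and 49.4, 54.0 and 46.6 CPM at 9 months (-0.39 ± 0.12). Clec7a, the receptor dectin-1 for fungal glucans, had 32.4, 29.9 and 44.7 CPM and then 19.4, 28.1 and 29.0 CPM (-0.49 ± 0.21). Both were separate between the ages. The exception was Itgam, the integrin CD11b of myeloid cells, with 4.04, 4.02 and 2.93 CPM and then 4.05, 6.57 and 8.30 CPM (0.78 ± 0.31). Lyz2, the most abundant gene of the list, overlapped at 369, 256 and 382 CPM and then 271, 266 and 238 CPM.

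Of the 21 factors of the senescence-associated secretory phenotype (SASP) that the study followed in these same samples, and which are therefore no independent list, 19 could be tested. None was higher and 1 was lower at an unadjusted p under 0.05, and the median log2 fold change was -0.06. The 1 lower factor is 5.26% of the list, beside 4.22% of all genes. These counts depended on the 9-month mice kept, since without mouse 1 there were 2 higher and 7 lower (median -0.33). Without mice 2 and 3 the median was 0.16 over 20 factors tested. The 1 lower factor was Timp1, an inhibitor of matrix metalloproteinases, with 95.2, 368 and 143 CPM at 6 months and 71.5, 105 and 53.3 CPM at 9 months (-1.40 ± 0.49). The ages overlapped, and 6-month mouse 2 was the highest. The inhibitors of the cell cycle went separate ways. Cdkn1b, which encodes p27, had 315, 205 and 346 CPM and then 518, 442 and 430 CPM (0.68 ± 0.20), and Cdkn2a, the p16 and ARF locus, had 2.61, 1.93 and 2.43 CPM and then 1.57, 0.773 and 0.48 CPM (-1.31 ± 0.45). Cdkn1a, which encodes p21, had 32.7, 102 and 61.8 CPM and then 90.1, 20.5 and 15 CPM. Cdkn1b and Cdkn2a were separate between the ages in opposite directions, and Cdkn1a overlapped widely. Over the 20 senescence and p53 genes, 2 (10%) were higher and 1 (5%) was lower, beside 5.98% and 4.22% of all genes. Without 9-month mouse 1 the numbers were 1 and 5.

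Of 33 matrix genes 6 were lower and 1 was higher at an unadjusted p under 0.05 (median -0.14). Without 9-month mouse 1 there were 14 lower and 2 higher (median -0.32), and without mice 2 and 3 the median was 0.08. Mmp14, a membrane collagenase, had 290, 296 and 359 CPM at 6 months and 236, 260 and 199 CPM at 9 months (-0.45 ± 0.14). Col1a1, the main chain of collagen I, had 526, 536 and 543 CPM and then 697, 398 and 330 CPM (-0.17 ± 0.26). Mmp14 was separate between the ages, whereas Col1a1 spread to both sides of the 6-month level.

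Of 22 immediate early genes 4 were lower and 1 was higher, and without 9-month mouse 1 there were 7 and 5. Egr3 and Egr2, zinc finger factors induced by gonadotropin and growth factor signals, had log2 fold changes of -1.44 ± 0.38 and -1.47 ± 0.45. Egr3 measured 7.49, 18.5 and 12.5 CPM at 6 months and 5.24, 6.02 and 2.98 CPM at 9 months, with no overlap. Ovulation genes included Tnfaip6, a matrix protein of the expanding cumulus, with 1.43, 2.33 and 2.83 CPM and then 1.24, 1.05 and 0.336 CPM. Edn2, the endothelin of the ovulating follicle, had 1.28, 8.73 and 4.75 CPM and then 2.32, 0.773 and 0.576 CPM, with overlap. Of 14 ovulation genes tested, 3 were lower and 1 was higher (median 0.10). The median was -0.50 without 9-month mouse 1, with 4 lower and 2 higher, and -0.08 without 6-month mouse 3, with 3 lower and 2 higher.

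The clock list contained 1 of the most separate genes of the comparison. Rora, a nuclear receptor that activates Bmal1 (chr9:68653786-69388246), had 36.0, 38.8 and 39.9 CPM at 6 months and 80.2, 118 and 88.0 CPM at 9 months. The log2 fold change was 1.32 ± 0.16, the adjusted p was 0.102 in edgeR, and the value with mice 2 and 3 left out was 1.07. Its target Arntl, which encodes BMAL1, had 12.5, 14.6 and 10.7 CPM and then 13.4, 22.9 and 31.4 CPM (0.84 ± 0.29), with mouse 1 within the 6-month range. Of 19 clock genes 3 were higher and none was lower (median 0.18). Without 6-month mouse 3 the number was 1, and without 9-month mice 2 and 3 the median was 0.20. The hour of collection was not given in the sources used here.

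Endothelial genes were higher, most of all in 9-month mice 2 and 3. Of 17 genes 6 were higher at an unadjusted p under 0.05 and none was lower (median 0.34). Plvap, which forms the diaphragms of fenestrated capillaries, had 20.4, 29.1 and 24 CPM at 6 months and 31.1, 60.5 and 95.6 CPM at 9 months (1.34 ± 0.36). Robo4, a receptor that keeps vessels stable, had 25.6, 29.7 and 28.8 CPM and then 41.2, 59.1 and 45.4 CPM (0.79 ± 0.15, adjusted p = 0.188 in edgeR). Both were separate between the ages. Without mouse 1, 10 were higher, and without mice 2 and 3 the median over the list was 0.03, although Robo4 still had a log2 fold change of 0.56.

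Of 38 mitosis genes 35 and of 30 DNA replication genes 27 had a lower mean, but only Cks1b and Cdc45 reached an unadjusted p under 0.05, and the medians were -0.17 and -0.15. Without 9-month mouse 1, 12 mitosis genes (median -0.33) and 3 DNA replication genes (median -0.22) were lower, and without mice 2 and 3 the medians were 0.09 and -0.09. Of 63 cytosolic ribosomal protein genes 55 had a lower mean with a median of -0.17, and 17 were lower in every 9-month mouse, beside 7.92% of all genes. At an unadjusted p under 0.05, 2 were lower, which is 3.17% beside 4.22% of all genes, and without 6-month mouse 3 none was. Rps6, a protein of the small subunit, had 708, 599 and 655 CPM at 6 months and 566, 512 and 518 CPM at 9 months (-0.30 ± 0.12). Many ribosomal protein genes have near-identical copies, so counts of single members are uncertain. Of 45 genes of the respiratory complexes 4 were higher, which is 8.89% beside 5.98% of all genes, and none was lower. Their median was 0.10. The number higher was 13 without 9-month mouse 1, a fit with 1785 of 17850 genes higher, and 1 without 6-month mouse 3. Without 9-month mice 2 and 3 the median was -0.03. Of 22 heat shock and unfolded protein genes none met the threshold in either direction. Without 9-month mouse 1, 3 were higher and 1 was lower, in a fit with 1785 and 1236 of 17850 genes higher and lower.

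Stromal fibroblast, smooth muscle and pericyte, surface epithelium, T and NK cell, and uterine and placental genes had no member past the unadjusted threshold in either direction. Without 9-month mouse 1, a fit in which 1785 and 1236 of all 17850 genes were higher and lower, some members did pass. Of 14 stromal fibroblast genes 1 was higher and 3 were lower. Of 14 surface epithelium genes 1 was higher and 2 were lower, and of 15 T and NK cell genes 1 was higher. Giant cell genes had 1 lower, neutrophil and mast cell genes 1 higher and 1 lower, adipocyte genes 1 each way, B and plasma cell genes 1 each way, and red blood cell genes 1 lower. With 9-month mouse 1 left out, 2 giant cell genes were higher and 3 lower of 12, and 3 neutrophil and mast cell genes were higher and 2 lower of 9. The other 6 of 7 red blood cell genes tested had a higher mean (median 0.82), with 6 higher at that threshold when 9-month mouse 1 was left out and a median of -1.43 when mice 2 and 3 were left out. Oviduct genes had 3 lower of 8 tested, and without 6-month mouse 3 they had none. The adipocyte median was -0.63 over 5 genes tested, and -0.12 without 6-month mouse 3. Over the B and plasma cell list, 10 of 14 genes tested had a higher mean (median 0.45). Without 9-month mice 2 and 3 the median was -0.55 over 15 genes tested. The list's summed level was 347, 549 and 317 CPM at 6 months and 622, 826 and 487 CPM at 9 months, with the ages overlapping. Its member Derl3, a protein of endoplasmic reticulum quality control, went the other way, with 45.1, 40.3 and 43.3 CPM at 6 months and 26.2, 20.1 and 31.6 CPM at 9 months (-0.73 ± 0.17), without overlap.

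Among single genes, Bhmt and Parvb had the smallest adjusted p. Bhmt, a betaine-homocysteine methyltransferase (chr13:93616675-93637961), had 2.66, 7.98 and 3.09 CPM at 6 months and 69.9, 65.8 and 84.5 CPM at 9 months. Its log2 fold change, 4.0 with an SE of 0.40, had an adjusted p of 0.083 in edgeR. The 9-month mice were alike, and each was several times above the highest 6-month mouse. Parvb, an integrin-linked adaptor named here after its value was seen, had 32.8, 34.1 and 42.0 CPM and then 93.1, 109 and 126 CPM (1.59 ± 0.15, adjusted p = 0.083 in edgeR). With 9-month mice 2 and 3 left out, the log2 fold changes were 3.94 and 1.36. Bhmt was not uniform elsewhere in the series, as it ranged from 0.160 to 63.7 CPM at 3 months and from 10.7 to 154 CPM at 12 months.

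The other higher genes of this kind were mostly highest in 9-month mice 2 and 3. Slc12a8, a membrane transporter, had 14.4, 21.2 and 18.2 CPM at 6 months and 52.7, 180 and 128 CPM at 9 months (2.74 ± 0.41, adjusted p = 0.116 in edgeR). Unc13d, a factor of secretory granule release, had 27.7, 28.1 and 28.1 CPM and then 43.3, 343 and 237 CPM (2.89 ± 0.62). Ssu2 had 4.49, 5.21 and 8.14 CPM and then 9.95, 94.4 and 153 CPM (3.84 ± 0.85). In these 3 genes mouse 1 was above the 6-month mice but by much less. Etos1 differed, with 0.493, 0.446 and 0.101 CPM and then 4.43, 3.48 and 9.31 CPM (4.02 ± 0.59).

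Among the lower genes, S100g, the calcium-binding protein calbindin-D9k (chrX:162961992-162964599), had 1.92, 7.68 and 6.37 CPM at 6 months and 0.108, 0 and 0 CPM at 9 months. No 9-month library had more than 2 of its counts, so its mean was at least 33.9-fold lower at 9 months, taking 3 counts per library as the limit (adjusted p = 0.102 in edgeR). Kcnq3, a potassium channel subunit, had 5.23, 3.32 and 4.45 CPM and then 1.24, 1.16 and 0.672 CPM (-2.08 ± 0.34, adjusted p = 0.138 in edgeR). Cdsn, the adhesion protein corneodesmosin, had 7.94, 8.13 and 14.4 CPM and then 2.65, 2.93 and 1.82 CPM (-2.05 ± 0.32). Ramp1, which pairs with the receptor for calcitonin gene-related peptide, had 35.7, 23.5 and 52.6 CPM and then 16, 6.74 and 6.38 CPM (-1.94 ± 0.42). In all 4 the highest 9-month mouse stayed below the lowest 6-month mouse. Ovgp1, at a log2 fold change of -4.79, was -0.72 without 6-month mouse 3.

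The same step was compared in ABT263-treated mice, which share no library with the untreated ones. Of 17037 genes none passed an adjusted p of 0.05 in edgeR (0 genes, 0%), while 937 were higher and 954 lower at an unadjusted p under 0.05, or 5.5% and 5.6%, and DESeq2 called 424 at an adjusted p of 0.05. For the difference of the 2 steps, none of 18202 genes passed (0 genes, 0%), 722 and 613 were at an unadjusted p under 0.05 with the step more positive and more negative in untreated mice, or 3.97% and 3.37%, and DESeq2 called 99. Across 16745 genes tested in both, the log2 fold changes had a Pearson correlation of 0.10 and a Spearman correlation of 0.18, as a description over genes, which are not independent.

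Oocyte genes were lower at 9 months in both. In the treated mice 25 of 29 were lower at an unadjusted p under 0.05, with a median log2 fold change of -0.97, beside 11 of 30 and -0.62 in untreated mice. The summed levels in treated mice were 1008, 993 and 876 CPM at 6 months and 492, 722 and 465 CPM at 9 months. In the test of the difference, 1 of 30 genes was at an unadjusted p under 0.05 in each direction.

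Macrophage genes had steps of opposite direction in the 2 sets of mice, with a median of -0.27 in untreated mice. In treated mice 13 of 20 macrophage genes were higher and none was lower (median 0.51), and in the test of the difference 13 of 20 had a more negative step in untreated mice at an unadjusted p under 0.05, against a background of 3.37%. Lyz2, the macrophage lysozyme, had 171, 187 and 152 CPM at 6 months and 425, 352 and 435 CPM at 9 months in treated mice. The difference of its steps was -1.62 on the log2 scale, with an adjusted p of 0.112 in edgeR. Lgals3, a lectin of activated macrophages and giant cells, had 43.2, 42.4 and 29.4 CPM and then 114, 122 and 103 CPM in treated mice, beside 87.5, 68.7 and 104 CPM and then 84.6, 65.7 and 60.4 CPM in untreated mice. For both genes the treated mice lay below the untreated mice at 6 months and above them at 9 months. Giant cell genes had 9 of 12 members higher in treated mice (median 1.16), and for 9 of 12 the step was more negative in untreated mice. In untreated mice their median was near 0, at -0.05, with none higher and 1 of 12 lower.

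Several other lists had unlike steps. Beside 3.97% of all genes, cholesterol genes had 13 of 25 members with a more positive step in untreated mice and a median of -0.21 in treated mice, in which none met the threshold. Interferon-response genes had 6 of 23 such members, and in treated mice 4 of 23 were higher and none was lower, with a median of -0.13. Beside 3.37% of all genes, matrix genes had 12 of 33 members with a more negative step, and SASP factors 6 of 20. In treated mice 13 of 33 matrix genes were higher and 1 was lower (median 0.37), and 7 of 19 SASP factors were higher and none was lower (median 0.40), beside 5.5% of all genes higher and 5.6% lower.

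**Figure D5:**
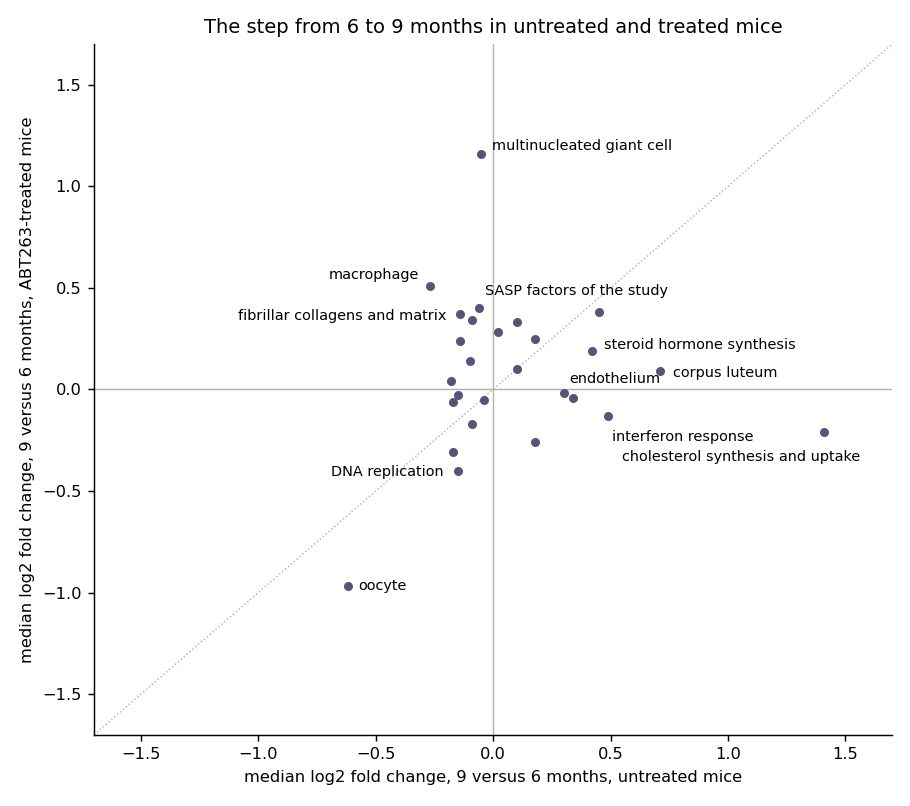
Median log2 fold change from 6 to 9 months of each list with at least 10 tested genes, in untreated (horizontal) and ABT263-treated (vertical) mice, with equal steps on the dotted line. Oocyte genes are below 0 on both axes (-0.62 and -0.97), macrophage genes are at -0.27 and 0.51, and cholesterol genes at 1.41 and -0.21.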

How the data were processed

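RNA of whole ovaries was sequenced in 24 mice, and the authors deposited 1 table of raw read counts per gene for all of them. The submitters' processing notes name STAR and mm10; the counting program and its strand setting are not given in the sources used here, so overlapping and antisense genes cannot be told apart. Counts were tested as deposited. Genes passing filterByExpr were compared between 3 mice at 9 months and 3 at 6 months with edgeR 4.0.16 (TMM, quasi-likelihood F test, Benjamini-Hochberg adjustment over all genes tested) in R 4.3.3, and with DESeq2 1.42.0 as an alternative. CPM used TMM factors over the 24 libraries. Tables were made in Python 3.11.15, and the fits were tested on simulated data. Library totals of 18377716 to 21049389 limit precision for genes near 3 counts.

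Gene positions are from GENCODE M21 (GRCm38), in which 54495 of 54532 identifiers were found, and promoters from RefSeq (GRCm38.p6). The comparison and the 32 gene lists were chosen with earlier results of these data known. Genes named were those with an adjusted p under 0.05, the 12 largest non-overlapping differences each way at 2 CPM or more, up to 4 members per list with the smallest p, the defining and most abundant markers, all-or-none genes and SASP factors. Genes described for their role in a pathway, such as Parvb, Gdf9, Srebf2, Isg15 and Cdkn1a, were taken up after their values were seen. Alternatives were other normalizations, filters, a replicate block, each mouse left out, all 24 libraries in 1 fit and, chosen after seeing the data, 9-month mice 2 and 3 left out. A few list members are counted in the lists but not reported here by name.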

Additional observations from a re-analysis of the deposited data

How the results depend on the processing

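With 3 mice per age and 1 library each, small differences and genes near 3 counts could not be resolved, and 1 mouse could decide a count. The number of genes at an adjusted p under 0.05 for the step in untreated mice was 0 in edgeR, 359 in DESeq2, 424 without a filter on low counts, 125 with 9-month mice 2 and 3 left out (chosen after seeing the data, with the lone 9-month mouse assumed to vary like the 6-month mice), and 0 to 583 with 1 mouse left out, the 583 without 9-month mouse 1 and 1 without 6-month mouse 2. Genes higher at an unadjusted p under 0.05 numbered 1035, 1556 without the filter and 677 to 1785 with 1 mouse left out; genes lower numbered 731, 1126 without mice 2 and 3 and 508 to 1236 with 1 mouse left out. In ABT263-treated mice the adjusted count was 0, 424 in DESeq2 and 0 to 133 with 1 mouse left out, the 133 without treated 9-month mouse 2. For the difference of the steps it was 0, 99 in DESeq2 and 0 to 31, the 31 without untreated 9-month mouse 1. The causes were not tested.

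Oocyte genes lower at an unadjusted p under 0.05 numbered 11, 2 with all 24 libraries in 1 fit (chosen after seeing the data) and 2 to 21 with 1 mouse left out. In that fit of all libraries, 2 luteal, 8 cholesterol and 5 interferon-response genes were higher. Leaving out 1 mouse gave 3 to 8 luteal, 8 to 23 cholesterol and 5 to 12 interferon-response genes higher. Without 9-month mice 2 and 3 the median log2 fold change was 0.25 for luteal, -0.20 for cholesterol, 0.01 for steroid hormone and 0.03 for endothelial genes, with 2 cholesterol genes higher and 8 lower at an unadjusted p under 0.05, counts that rest on 1 9-month mouse and are no test of the age, and the log2 fold change turned for Ddx4 (0.42), Scarb1 (-0.08), Ptgfr (-0.28), Akr1c18 (0.81), Hsd17b7 (-1.93), Lss (-0.13), Tm7sf2 (-0.14), Srebf2 (-0.12), Bst2 (-0.03), Cdkn1a (0.47), Col1a1 (0.39) and Npas2 (-0.22). With 1 mouse left out it turned for Ddx4 (-0.70 to 0.20), Inha (-0.22 to 0.24), Akr1c18 (-3.74 to 0.24) and Col1a1 (-0.57 to 0.03).

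Mice of the 2 ages share replicate numbers. Deviations of same-numbered mice had correlations of 0.306, 0.239 and 0.096, each the highest for its mouse, a hint from the data only, and nothing in the labels pairs them. With a replicate block, 1 gene passed the adjusted threshold in untreated mice, 3 in treated mice and 0 for the difference, and 18 oocyte genes were lower at an unadjusted p under 0.05.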

Other observations

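A number of genes were at 3 counts or fewer in at least 1 of the 6 libraries and at 5 CPM or more in another. Rln1, which encodes the hormone relaxin, was at 16.1 CPM in 9-month mouse 2 and 2.64 CPM in mouse 3, with 0 CPM in mouse 1 and at most 0.0992 CPM at 6 months. Gbp2b, a guanylate-binding protein, was at 0.541, 30.4 and 0 CPM at 9 months and at 0.405 CPM or less at 6 months. Cyp11b1, an enzyme of adrenal corticosteroid synthesis, was at 9.03, 0.663 and 0.24 CPM at 9 months and at 0.152 CPM or less at 6 months. Krt15, an epithelial keratin, reached 16.8 CPM in 9-month mouse 3 and at most 0.828 CPM in the other untreated mice of both ages. A2ml1 reached 21.6 CPM in 6-month mouse 3, the library with oviduct RNA, and at most 0.595 CPM in the others. Ighg3, an immunoglobulin heavy chain whose reads may be shared with near-identical genes, was at 4.29, 5.55 and 28.6 CPM at 6 months and at 0, 4.92 and 0.432 CPM at 9 months. In all, 35 genes met this rule.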
